A study of Mus musculus with 12 samples.

Results

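The endocardial cushions are swellings of extracellular matrix and mesenchyme at the atrioventricular canal and the outflow tract of the embryonic heart, from which the valves and septa form. The cushion and valve mesenchyme genes described here are 10 genes of the 26190 in the deposited table, taken as the rows whose gene name is Hapln1, Vcan, Has2, Postn, Twist1, Sox9, Msx1, Msx2, Snai1 or Snai2. All 10 were found as 1 row each, and all 10 passed the filter on low counts in every comparison. No measured value was used to choose them for this description, but the choice was made with earlier results of these data known.

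The libraries were made from total RNA of 4 groups with 3 replicates each. The hearts of C57BL/6 mouse embryos at E11.5 (E11.5H) were cut into atria and ventricles, and heart organoids (HOs) cultured for 13 days were cut into a part called atrium-like and a part called ventricle-like. HOs are beating structures grown from embryoid bodies of mouse embryonic stem cells (ESCs) on a gel of laminin and entactin with FGF4, with BMP4, the Wnt activator BIO and LIF added for the last days, so every HO library had met these agents and no E11.5H library had. The labels give C57BL/6 for all 12 libraries, whereas the methods name independent wild-type ESC lines from C57BL/6 and from an F1 hybrid of C57BL/6 and JF1 and do not say which line gave which library. All groups were wild type. The sources used here do not say on which side of the cut the atrioventricular canal and the outflow tract, which carry the cushions, were left, how many embryos or HOs entered a library, or whether parts with the same replicate number came from the same HO. The methods call the HOs biological triplicates. Where replicates are not separate cultures or litters, the p-values measure only the spread between these samples.

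The total count per library was 23971258 to 30540993 (median 27966135). Levels are given as FPKM (fragments per kilobase of transcript, scaled by the total of the library), the unit of the deposited table that allows levels of different genes to be compared, and differences are given as log2 fold changes from counts with TMM scaling, which corrects for the composition of a library while FPKM does not. A difference is called where the edgeR quasi-likelihood test gave an adjusted p under 0.05 over all genes tested and the absolute log2 fold change was over 1. Summed over 16 cardiomyocyte markers, E11.5H libraries reached 26125 to 33087 CPM and HO libraries 738 to 8958 CPM. Summed over 10 markers of endocardium and endothelium, the cells from which cushion mesenchyme arises, the range was 983 to 1157 CPM in E11.5H and 45.3 to 323 CPM in HOs. The 10 general mesenchyme markers, most of them collagens, summed to 1994 to 4000 CPM in E11.5H and to 3104 to 29184 CPM in HOs. All markers of these 3 lists were above 3 counts in at least 1 library of every group. HO parts also held hepatocyte and visceral endoderm markers (264 to 26559 CPM against 38.1 to 48.2 CPM in E11.5H) and gut epithelium markers (1215 to 8690 CPM against 137 to 179 CPM). All of these are bulk samples, in which fewer cells of a type and less RNA per cell cannot be told apart.

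Cushion formation begins when the myocardium of the canal deposits cardiac jelly, a matrix of hyaluronan and proteoglycans. Has2 makes the hyaluronan, Vcan encodes versican, a large proteoglycan that binds it, and Hapln1 encodes the link protein that holds the complex together. Endocardial cells then undergo an epithelial-mesenchymal transition in which the zinc finger repressors Snai1 and Snai2 and the basic helix-loop-helix factor Twist1 take part, invade the jelly and proliferate, with Msx1, Msx2 and Sox9 as further transcription factors of the cushions. Postn encodes periostin, a matricellular protein of maturing cushions and of fibroblasts.

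In E11.5H, 3 of the 4 matrix genes differed more between the chambers than any transcription factor of the group, and were lower in the atria. Postn, Vcan and Has2 fell in atria against ventricles, no member rose, and 3 of 10 members were called where the share over all genes tested was 4.90% (712 of 14536) and the share called lower was 1.97%. The log2 fold change was negative for 9 of 10 members, with a median of −0.59 beside 0.01 over all genes tested. In 7 of 10 members the libraries of the chambers did not overlap in FPKM, against 33.1% of all genes tested, and in 6 of 10 every atrial library was below every ventricular one, against 11.8%.

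Among the members, periostin differed most. Postn was at 13.2, 13.5 and 16.4 FPKM in the 3 atrial libraries and at 59.99, 47.94 and 49.997 FPKM in the ventricular ones. The lowest ventricular library was thus above the highest atrial one, and the log2 fold change was −1.94 (SE 0.11, 3.84-fold lower in atria, edgeR adjusted p = 2.85e-06). Vcan was at 16.0, 14.8 and 12.96 FPKM in atria and at 40.9, 41.8 and 36.1 FPKM in ventricles. The replicates lay close together in both chambers, and the log2 fold change was −1.51 (SE 0.09, 2.84-fold lower, edgeR adjusted p = 3.06e-06). Has2 was at 5.77, 3.89 and 1.96 FPKM in atria and at 12.4, 10.1 and 6.94 FPKM in ventricles. Its libraries did not overlap either, but they spread more within a chamber, and the log2 fold change was −1.40 (SE 0.33, 2.64-fold lower, edgeR adjusted p = 0.018). The call of Has2 was lost without atrial replicate 2 (adjusted p = 0.075), without ventricular replicate 1 (0.071) or without ventricular replicate 2 (0.062), while Postn and Vcan were called without any single library. Where all 12 libraries entered one fit, its spread included that of the HO libraries. That fit called 0 of 10 members between the chambers of E11.5H, beside 30 of all genes.

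Hapln1 differed less between the chambers than the gene of its binding partner versican and was not called. It was at 37.6, 28.7 and 25.4 FPKM in atria, where it was the highest of the 10 members, and at 47.0, 41.3 and 30.5 FPKM in ventricles. The ranges of the chambers overlapped, and the log2 fold change of −0.44 (95% interval −0.79 to −0.08, edgeR adjusted p = 0.11) did not pass, although the whole interval was negative. The ratio of Hapln1 to Vcan within a library, which does not depend on how libraries are scaled, was 1.94 to 2.35 in atria and 0.845 to 1.15 in ventricles. This ratio and those given further on were picked after the values had been seen and are given without a test.

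Hapln1 and Vcan are neighbours on chromosome 13 and point towards each other. In GRCm38, Hapln1 lies at chr13:89540636-89611832 on the plus strand and Vcan at chr13:89655310-89742512 on the minus strand, with 43477 bases and no other gene of the table between them. Their promoters, 250 bases before to 50 bases after the start as listed by RefSeq for GRCm38.p6, are shown because these neighbours encode binding partners whose levels differed in their pattern over the 4 groups. Capitals in the promoters shown mark 2 motifs, searched on both strands, which do not overlap here, namely the E-box CAGGTG (reverse complement CACCTG), whose letters the SNAIL proteins bind, and the TATA core TATAAA (reverse complement TTTATA). These were found in 20.2% and 13.6% of the 32851 promoters of the same length in the table. Neither of the promoters at chr13:89540386-89540685 (plus strand) and chr13:89742463-89742762 (minus strand) held one of them, so both are in lower case.
Hapln1: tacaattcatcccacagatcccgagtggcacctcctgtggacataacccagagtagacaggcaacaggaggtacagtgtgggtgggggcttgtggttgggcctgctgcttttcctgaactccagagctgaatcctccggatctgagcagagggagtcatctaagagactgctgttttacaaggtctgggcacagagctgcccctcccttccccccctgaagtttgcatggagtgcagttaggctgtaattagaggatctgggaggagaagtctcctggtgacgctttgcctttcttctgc
Vcan: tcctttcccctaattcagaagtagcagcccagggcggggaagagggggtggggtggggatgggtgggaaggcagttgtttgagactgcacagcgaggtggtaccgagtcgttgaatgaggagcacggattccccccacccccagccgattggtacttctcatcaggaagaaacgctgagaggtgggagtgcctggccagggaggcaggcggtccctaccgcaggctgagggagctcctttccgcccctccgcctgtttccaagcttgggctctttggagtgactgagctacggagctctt
The Hapln1 promoter held 3 CG dinucleotides and the Vcan promoter 12, beside a median of 7 over all promoters of the table. Such a match, or its absence, describes the letters of this window only.

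The transcription factors of the group differed less between the chambers of E11.5H. Sox9, which drives chondrogenic and cushion matrix genes, was at 21.6, 15.9 and 15.4 FPKM in atria and at 30.2, 27.2 and 22.0 FPKM in ventricles. The chambers did not overlap, though the highest atrial and the lowest ventricular library nearly met, and the log2 fold change of −0.65 (SE 0.14, edgeR adjusted p = 0.013) passed the p threshold but not the fold limit. Msx1 was in the same position with 7.83, 6.82 and 4.57 FPKM in atria, 10.9, 11.3 and 8.74 FPKM in ventricles and a log2 fold change of −0.75 (SE 0.20, edgeR adjusted p = 0.032). Twist1 was at 9.33 to 12.3 FPKM in atria and 12.9 to 17.5 FPKM in ventricles, with a log2 fold change of −0.49 (95% interval −0.82 to −0.16, edgeR adjusted p = 0.055). Msx2, the paralogue of Msx1, was at 3.62 to 6.25 FPKM in atria and 5.64 to 7.92 FPKM in ventricles, and its log2 fold change of −0.53 (95% interval −1.04 to −0.03) did not pass.

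Snai1 and Snai2 showed no called chamber difference. Snai1 was the lowest member in both chambers, at 1.98 to 2.48 FPKM in atria and 1.79 to 2.99 FPKM in ventricles, with a log2 fold change of −0.19 (95% interval −0.89 to 0.52). Snai2 was the only member with a positive value. It was at 9.97, 13.4 and 10.7 FPKM in atria and 9.87, 8.18 and 9.58 FPKM in ventricles, so that every atrial library was above every ventricular one, but the log2 fold change of 0.23 (95% interval −0.09 to 0.56, edgeR adjusted p = 0.36) did not pass. By FPKM, the ratio of Snai1 to Snai2 was 0.148 to 0.249 in atria.

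Ordered by mean FPKM, Hapln1 (30.5 ± 6.3, SD, n = 3) led in atria, followed by Sox9 (17.6 ± 3.4), Vcan (14.6 ± 1.5), Postn (14.4 ± 1.7), Snai2 (11.4 ± 1.8), Twist1 (11.2 ± 1.7), Msx1 (6.41 ± 1.67), Msx2 (5.003 ± 1.32), Has2 (3.87 ± 1.90) and Snai1 (2.17 ± 0.27). Of the 9 pairs of neighbours in this order 7 overlapped, so that only the steps below Hapln1 and below Twist1 were free of overlap. In ventricles Postn (52.6 ± 6.4) led, followed by Vcan and Hapln1 (both 39.6, ± 3.1 and ± 8.4), Sox9 (26.5 ± 4.1), Twist1 (15.1 ± 2.3), Msx1 (10.3 ± 1.4), Has2 (9.82 ± 2.76), Snai2 (9.21 ± 0.90), Msx2 (6.89 ± 1.16) and Snai1 (2.35 ± 0.60), and 3 of the 9 neighbouring pairs overlapped.

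**Figure D1:**
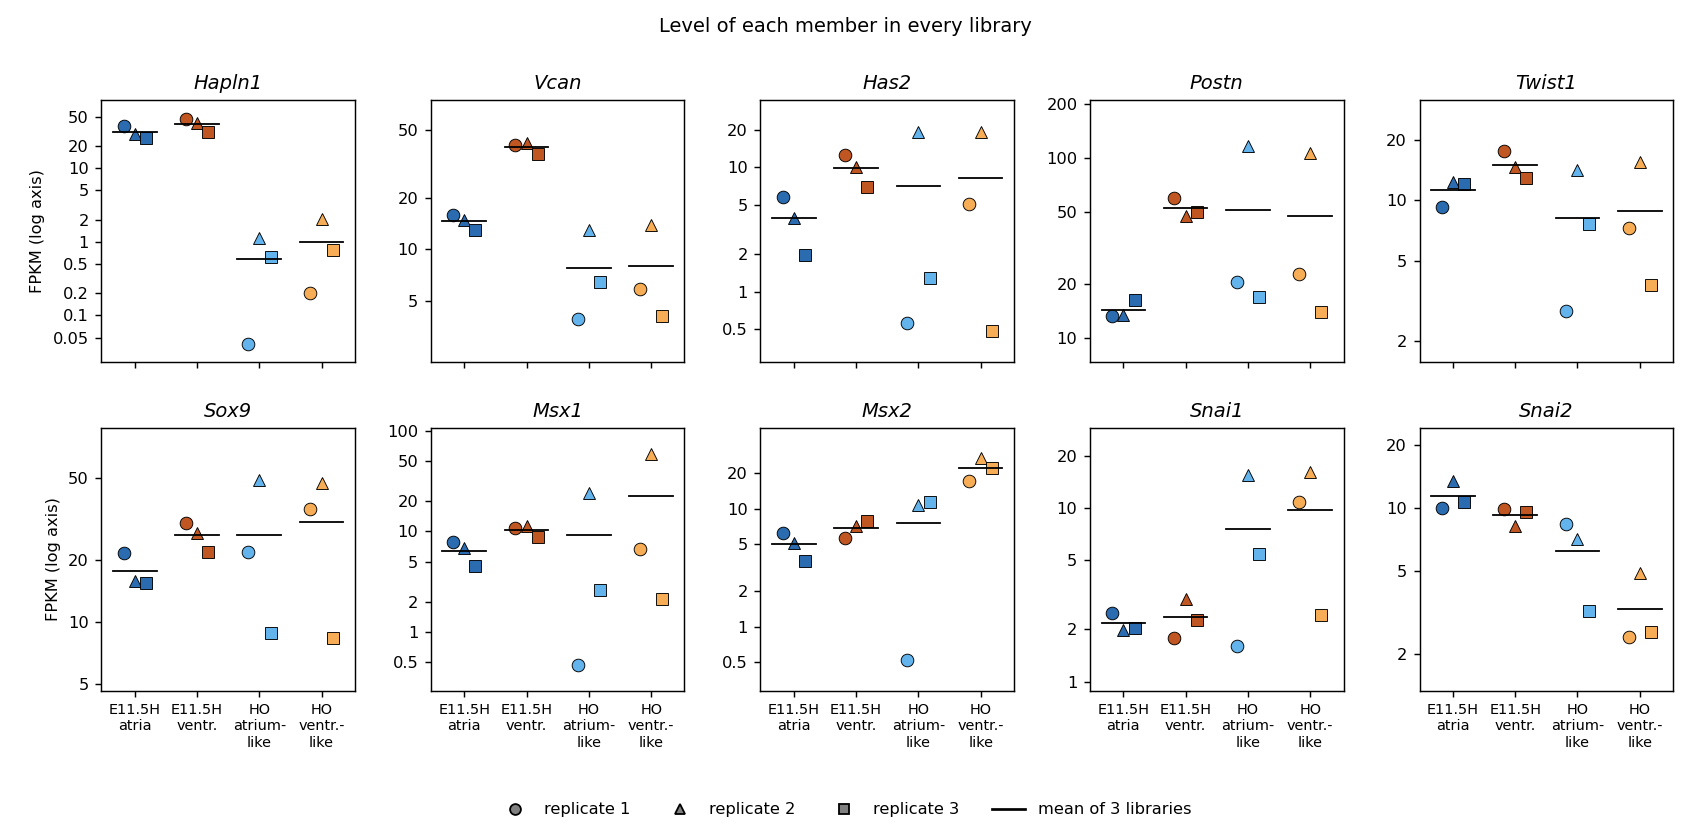
FPKM of the 10 members on log axes, 1 point per library, in the 4 groups, with symbols for the replicate number and a line at the mean of 3 libraries. In E11.5H the points of a group lie close together and Postn, Vcan and Has2 are lower in atria, whereas in HOs the triangles of replicate 2 lie above the other libraries for most members and Hapln1 stays at or below 2.06 FPKM.

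Between the atrium-like and the ventricle-like part of HOs, no member was called, and the libraries of each part spread widely. Of 10 members 0 were called, as were 0.00% of the 15703 genes tested (0 genes by edgeR and 0 by limma voom, 59 by DESeq2, and 889 genes at an unadjusted p under 0.05). The lowest adjusted p among members was 0.75 (edgeR). The libraries of the parts did not overlap for 1 of 10 members, Msx2, against 13.3% of all genes tested. Msx2 was at 0.517, 10.7 and 11.46 FPKM in atrium-like parts and 17.0, 26.8 and 22.0 FPKM in ventricle-like parts. All ventricle-like libraries were thus above all atrium-like ones, with a log2 fold change of −1.45 (95% interval −3.68 to 0.79). The 3 matrix genes called in E11.5H had wide intervals around 0 in HOs. The log2 fold change was 0.18 for Postn (95% interval −2.21 to 2.57), 0.08 for Vcan (−1.24 to 1.41) and −0.20 for Has2 (−3.97 to 3.57), so that differences as large as those of E11.5H lie within the intervals of Postn and Has2 and just outside that of Vcan.

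Most members were highest in libraries of 1 replicate number. HO replicate 2 was the highest of the ventricle-like libraries for 10 of 10 members and of the atrium-like libraries for 8 of 10, where 38.9% and 51.2% of all genes tested had it highest. Both replicate 2 libraries were above the other 4 HO libraries for 8 of 10 members, and for 18.7% of all genes. The exceptions were Msx2 and Snai2. Msx1 was at 0.470, 24.3 and 2.59 FPKM in atrium-like parts and 6.70, 59.2 and 2.11 FPKM in ventricle-like parts, which is a 126-fold range over 6 libraries. Has2 was at 0.560, 19.3 and 1.29 FPKM in atrium-like and 5.10, 19.0 and 0.487 FPKM in ventricle-like parts, a 39.6-fold range. Postn was at 20.5, 117 and 17.0 FPKM and at 22.8, 106 and 14.0 FPKM. Both replicate 2 libraries were above every E11.5H library for Has2, Postn, Msx1, Msx2, Sox9 and Snai1, while the other 4 HO libraries were below every ventricular library of E11.5H for Has2 and Msx1. Sox9 was also highest in replicate 2 of both parts, with 21.9, 48.9 and 8.88 FPKM in atrium-like and 35.6, 47.7 and 8.33 FPKM in ventricle-like parts. Twist1 (2.83 to 15.6 FPKM over the 6 libraries), Vcan (3.91 to 13.9) and Snai1 (1.60 to 16.1) were also highest in replicate 2 of both parts. Snai2 varied least, by 3.51-fold, from 2.39 to 8.40 FPKM. By mean FPKM, Postn was the highest and Hapln1 the lowest member in both HO parts, and 8 of 9 neighbouring pairs in the order overlapped in atrium-like and 7 of 9 in ventricle-like parts. In E11.5H, no member varied by more than 2.94-fold (Has2 in atria) between the libraries of a chamber.

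Markers of other cell types moved between the HO libraries too. The summed general mesenchyme markers were 5191, 17552 and 6440 CPM in atrium-like replicates 1 to 3 and 29184, 11932 and 3104 CPM in ventricle-like replicates 1 to 3, so that replicate 2 was the highest of the atrium-like but not of the ventricle-like parts. Markers of cartilage, a tissue that also uses Sox9 and Hapln1, summed to 7.72, 282 and 34.5 CPM and to 158, 393 and 77.8 CPM, highest in replicate 2 of both parts. Of the 10 cartilage markers, Matn1 and Cnmd were at 0 counts in all atrium-like libraries, Matn3 in all ventricle-like ones and Matn1 in all E11.5H libraries. Endocardium and endothelium markers summed to 45.3, 323 and 118 CPM and to 234, 238 and 70.0 CPM. The order of the libraries within each part was the same for the cartilage and the endocardium and endothelium markers as for Has2, Vcan, Twist1, Msx1 and Snai1. Smooth muscle markers had that order too (438, 1500 and 769 CPM, and 1850, 1966 and 1094 CPM). Skeletal muscle and macrophage markers were also highest in replicate 2 of both parts. Hepatocyte and visceral endoderm markers (26559, 1278.5 and 11828 CPM, and 825, 264 and 12782 CPM) had the reverse order in both parts, as did gut epithelium markers. Epicardium markers were lowest in replicate 2 of both parts (204, 69.1 and 155 CPM, and 558, 28.1 and 359 CPM). Cardiomyocyte markers were highest in replicate 3 of both (738, 2050 and 2708 CPM, and 4469, 2885 and 8958 CPM). For neural crest and glia markers, replicate 2 was the lowest of the atrium-like parts (219, 195 and 201 CPM) and the highest of the ventricle-like parts (78.0, 165 and 136 CPM). The part of any of these lists in the levels of the members was not tested.

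**Figure D2:**
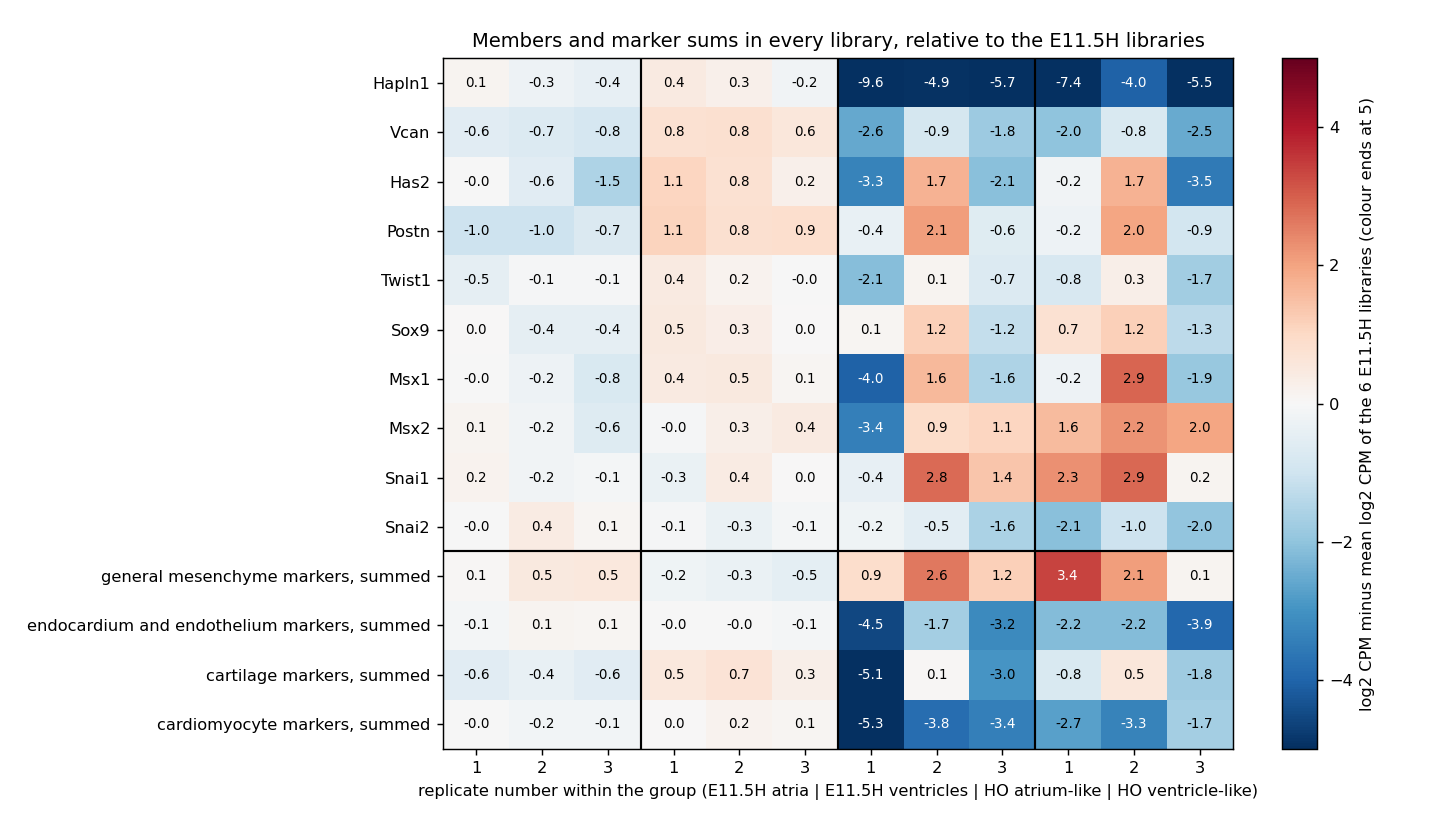
Log2 CPM of the 10 members and of 4 summed marker lists in each of the 12 libraries, as the difference from the mean of the 6 E11.5H libraries, with colour from −5 (blue) to 5 (red). For 8 of 10 members both HO replicate 2 columns are higher than the other 4 HO columns, and Hapln1 is blue in all 6 HO libraries, as are the summed markers of endocardium and of cardiomyocytes.

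Against the embryonic heart, the link protein gene stood apart from the rest of the group. Hapln1 was at 0.0415, 1.11 and 0.614 FPKM in atrium-like parts and at 0.199, 2.06 and 0.763 FPKM in ventricle-like parts, from 6 to 340 counts per library, while no E11.5H library was under 25.4 FPKM. The groups were thus far from overlapping. The log2 fold change was −5.60 (SE 0.95, 48.6-fold lower, edgeR adjusted p = 0.0091) for atrium-like parts against atria and −5.40 (SE 0.83, 42.3-fold lower, edgeR adjusted p = 0.0074) for ventricle-like parts against ventricles, and Hapln1 was called in both without any single library. Within a library, the ratio of Hapln1 to Vcan was 0.0106 to 0.0955 for the atrium-like part and 0.0338 to 0.187 for the ventricle-like part, below the ratio of every E11.5H library.

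In atrium-like parts against atria, Hapln1 was the only member called, 1 of 10 beside 24.8% of the 15418 genes tested, and the median over members was 0.62 beside 0.06 over all genes. The libraries of the groups did not overlap for 3 of 10 members (Hapln1, Postn and Snai2), against 54.4% of all genes. Postn was above atria in all 3 libraries, with a log2 fold change of 1.91 (SE 0.69, 95% interval 0.24 to 3.58, edgeR adjusted p = 0.080), and was called by DESeq2 (adjusted p = 0.013). Snai1 had a log2 fold change of 1.87 (SE 0.72, edgeR adjusted p = 0.092) and was called by DESeq2 (adjusted p = 0.027) and, by edgeR, without atrium-like replicate 1 (log2 fold change 2.30, adjusted p = 0.017). Without that library Msx2 was called as well (1.22, adjusted p = 0.030), and without atrium-like replicate 2 Vcan was (−1.27, adjusted p = 0.0059), as was Has2, whose sign turned (−1.85, adjusted p = 0.046, against 0.89 with all libraries). With all libraries Vcan was at −0.79 (95% interval −1.65 to 0.06) and Msx2 at 0.69 (−1.49 to 2.88). The intervals of Has2 (−1.98 to 3.75), Twist1 (−1.51 to 0.82), Sox9 (−0.57 to 1.9995), Msx1 (−2.23 to 3.31) and Snai2 (−1.65 to 0.30) held 0 too.

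In ventricle-like parts against ventricles, 4 of 10 members were called beside 18.9% of the 15094 genes tested, 3 of them lower and 1 higher, with a median of −0.31 over members beside 0.09 over all genes. Each comparison of HOs with E11.5H shares its libraries with the comparisons between chambers. The libraries did not overlap for the same 4 members, against 50.7% of all genes. Beside Hapln1, Vcan fell with a log2 fold change of −2.42 (SE 0.45, 5.34-fold lower, edgeR adjusted p = 0.013), from 36.1 to 41.8 FPKM in ventricles to 4.07 to 13.9 FPKM in ventricle-like parts. Snai2 fell by 1.60 on the log2 scale (SE 0.33, 3.02-fold, edgeR adjusted p = 0.017), from 8.18 to 9.87 FPKM to 2.39 to 4.88 FPKM. Msx2 rose by 1.57 (SE 0.23, 2.97-fold, edgeR adjusted p = 0.0063), from 5.64 to 7.92 FPKM to 17.0 to 26.8 FPKM, and its 3 ventricle-like libraries lay closer together than those of any other member in HOs. The calls of Vcan and Snai2 were lost without any 1 of the 3 ventricular E11.5H libraries (adjusted p = 0.052 to 0.058 and 0.065 to 0.076), with log2 fold changes that stayed between −2.47 and −2.40 and between −1.70 and −1.56. Without ventricle-like replicate 2, Postn (−1.58, adjusted p = 0.0090) and Twist1 (−1.50, adjusted p = 0.025) were called lower in addition, and without ventricle-like replicate 3 Snai1 was called higher (2.38, adjusted p = 0.0040). With all libraries these 3 were at −0.25 (95% interval −1.98 to 1.48), −0.86 (−2.03 to 0.32) and 1.96 (0.32 to 3.59), and DESeq2 called Snai1 (adjusted p = 0.013). Has2 (−0.36), Sox9 (0.11) and Msx1 (1.02) had intervals that held 0.

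**Figure D3:**
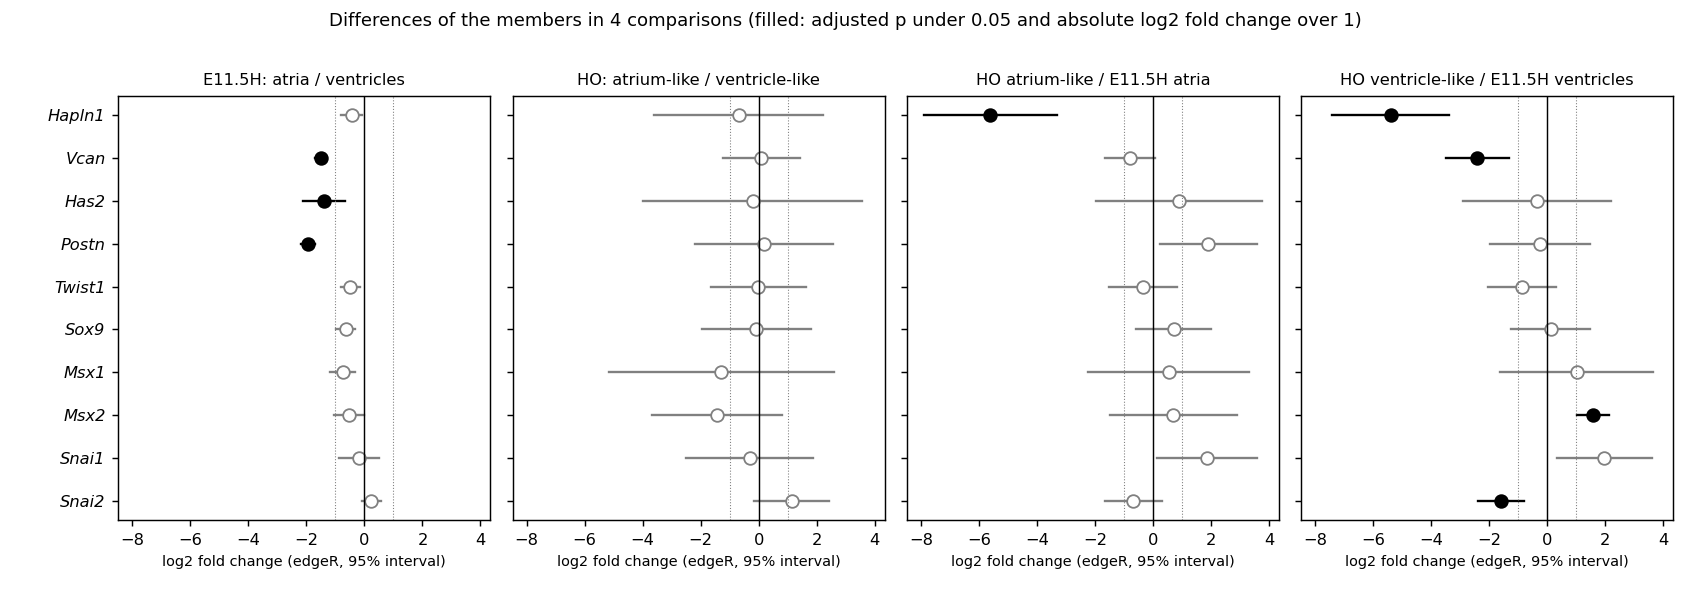
Log2 fold change of each member with its 95% interval (edgeR) in 4 comparisons, with filled points for called members and dotted lines at the fold limit of 1. The intervals are narrow between the chambers of E11.5H and wide in the 3 comparisons with HO libraries, and Hapln1 lies below −5 in both comparisons of HO parts with the embryo.

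The scaling of the libraries changed the sign of several of these differences. Scaling to the cardiomyocyte markers moved the median of all genes to 3.85 in atrium-like parts against atria and to 2.95 in ventricle-like parts against ventricles, and scaling to the general mesenchyme markers moved it to −1.56 and −1.54. Between chambers the medians moved to 0.60 and −0.36 in E11.5H and to 1.51 and −0.35 in HOs. Hapln1 was called lower in HO parts under both scalings, at −2.32 and −2.30 with cardiomyocyte scaling and at −7.79 and −7.16 with mesenchyme scaling. Measured from the shifted median, Vcan stayed below it in both comparisons under both scalings (−1.01 and −1.13 in atrium-like, −2.25 and −2.90 in ventricle-like parts), although its value itself turned to 2.84 and 0.70 with cardiomyocyte scaling. Msx2 in ventricle-like parts was 1.53 above the median under both, although its value with mesenchyme scaling was −0.01. Snai2 in ventricle-like parts was 1.54 and 1.83 below the median, although its value with cardiomyocyte scaling was 1.41. In E11.5H, Postn, Vcan and Has2 were lower in atria under both scalings, all 3 called with mesenchyme scaling and 1, Postn, with cardiomyocyte scaling, and all 10 members kept their side of the median.

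The matrix and repressor genes of the HO parts also differed from the embryo in their proportions. Postn over Vcan was 0.828 to 1.26 in atria and 1.15 to 1.47 in ventricles, but 2.65 to 8.94 for the atrium-like part and 3.44 to 7.64 for the ventricle-like part, so that every HO library was above every E11.5H library. Snai1 over Snai2 was 0.148 to 0.365 in E11.5H, whereas it was 0.190, 2.21 and 1.70 in atrium-like and 4.56, 3.30 and 0.955 in ventricle-like parts. The SNAIL paralogues thus had the opposite order in 4 of 6 HO libraries. Msx2 over Msx1 was 0.518 to 0.906 in E11.5H. In HOs it was below that range in both replicate 2 libraries (0.440 and 0.453) and above it in the other 4 (1.10 to 10.4).

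**Figure D4:**
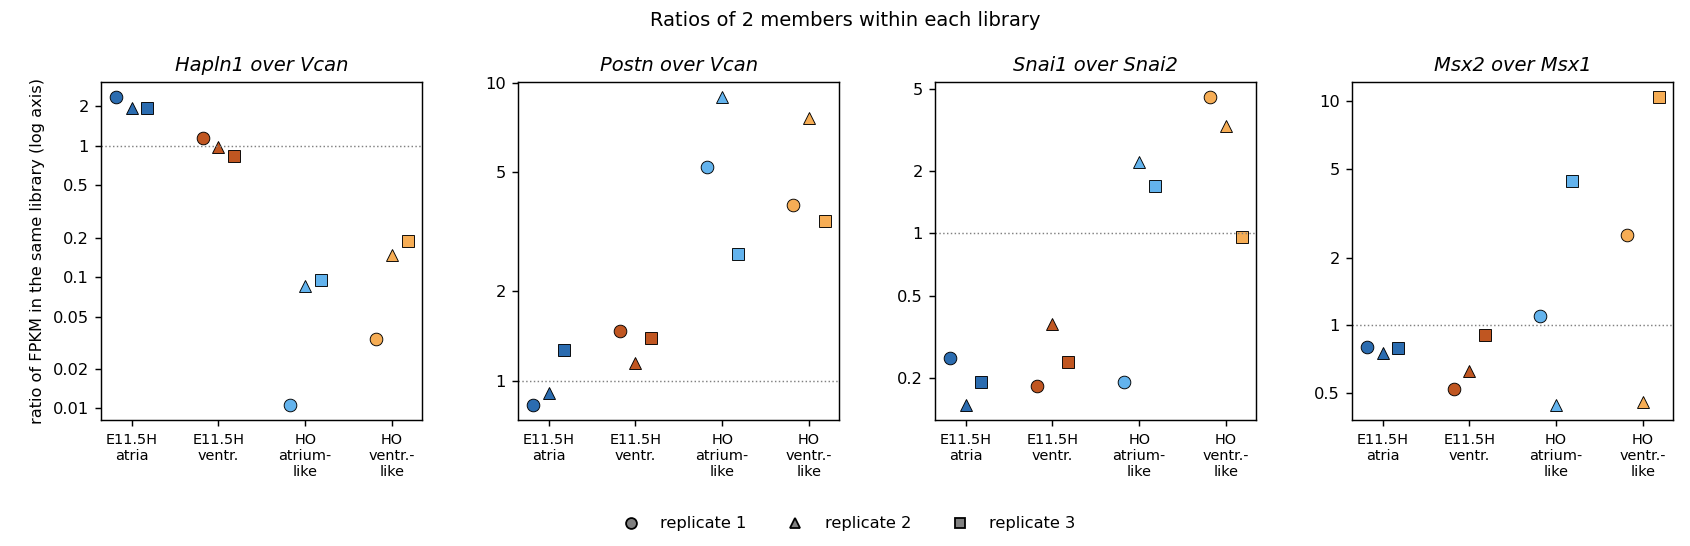
Ratio of the FPKM of 2 members within each library, on log axes, with a dotted line at 1. Hapln1 over Vcan is 0.187 or less in HOs, Postn over Vcan is above every E11.5H value in all 6 HO libraries, and Snai1 over Snai2 and Msx2 over Msx1 scatter on both sides of 1 in HOs but stay below 1 in E11.5H.

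The promoters of Snai1 and Msx1 are shown as those of the 2 members among the 7 with a RefSeq promoter that held the E-box letters. In both the match began before the start of transcription, 126 bases in Snai1 at chr2:167537945-167538244 (plus strand) and 210 bases in Msx1 at chr5:37824536-37824835 (minus strand).
Snai1: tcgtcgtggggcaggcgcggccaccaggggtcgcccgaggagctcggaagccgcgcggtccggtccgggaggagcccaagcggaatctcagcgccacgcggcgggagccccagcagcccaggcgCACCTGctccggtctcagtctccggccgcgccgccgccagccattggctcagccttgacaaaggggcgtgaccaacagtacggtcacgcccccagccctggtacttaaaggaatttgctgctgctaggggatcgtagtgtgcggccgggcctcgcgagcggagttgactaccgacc
Msx1: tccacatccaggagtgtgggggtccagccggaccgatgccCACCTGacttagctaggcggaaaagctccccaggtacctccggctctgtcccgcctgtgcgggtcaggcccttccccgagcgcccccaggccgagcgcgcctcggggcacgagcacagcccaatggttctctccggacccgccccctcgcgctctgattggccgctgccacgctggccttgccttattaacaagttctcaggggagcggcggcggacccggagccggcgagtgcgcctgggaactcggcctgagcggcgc
They were rich in CG, with 34 and 29 dinucleotides. TATAAA began 126 bases before the start in Twist1 and 26 bases before the second of the 2 Postn starts of the table, at chr3:54360857-54361156 (plus strand), and was absent from the first. Has2 overlaps the antisense gene Has2os and Msx1 the antisense gene Msx1os. The use of strand in counting is not given in the sources used here, so that reads of these pairs may not be separable, but the antisense genes had at most 4 and 109 counts in a library, against 67 to 2775 for Has2 and 26 to 3738 for Msx1.

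The difference of the chamber differences, HO minus E11.5H, was called for 0 of 10 members, beside 0.152% of the 16494 genes tested (25 by edgeR, 444 by DESeq2 and 12 by limma voom, with 1928 at an unadjusted p under 0.05). It was largest for Postn, at 2.17 on the log2 scale (95% interval −0.22 to 4.56, edgeR adjusted p = 0.46), and for Vcan, at 1.62 (0.31 to 2.93, edgeR adjusted p = 0.36). Without replicate 2 of both HO parts, a choice made after seeing the data, both were called (Postn 2.22, adjusted p = 0.020, and Vcan 1.79, adjusted p = 0.025, edgeR), beside 276 of all genes. The comparison between HO parts still called 0 members without these libraries.

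Besides the members, 4 lists of other cushion and valve genes were examined. Among 22 genes of cushion induction, 3 were higher and 2 lower in atria of E11.5H, beside 4.90% of all genes called, with a median of 0.03. Hey1, a Notch target, rose in atria (1.73, adjusted p = 1.4e-06), as did Tbx3, a repressor of chamber myocardium (1.301, adjusted p = 0.0012), and Jag1, a Notch ligand (1.01, adjusted p = 0.0028). Hey2, the ventricular relative of Hey1, fell (−1.94, adjusted p = 6.1e-06), as did Erbb3, a neuregulin receptor needed in cushion mesenchyme (−1.43, adjusted p = 0.0066). The inducing ligands were not called between chambers, with values of 0.75 for Bmp2, 0.45 for Bmp4 and 0.21 for Tgfb2, and neither were Notch1 (−0.33) and the endocardial factor Nfatc1 (−0.19). Tbx2, which marks the canal myocardium, was at 0.89 (adjusted p = 0.0041), below the fold limit.

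Of the Notch targets, Hey1 was called lower in atrium-like, Hey2 in ventricle-like and Heyl in both HO parts, and the TGF-beta receptor Tgfbr2 rose. Hey1 was at 41.6 ± 0.4 FPKM in atria and 2.31 ± 1.31 in atrium-like parts (log2 fold change −4.02, adjusted p = 0.0032), Hey2 at 25.9 ± 3.4 in ventricles and 0.998 ± 0.199 in ventricle-like parts (−4.79, adjusted p = 0.00078), and Heyl fell in both (−2.68 and −1.61, adjusted p = 0.023 and 0.039). Jag1 fell in atrium-like parts (−2.002, adjusted p = 0.018) and the co-receptor Tgfbr3 in ventricle-like parts (−1.59, adjusted p = 0.0088). Tgfbr2 rose in atrium-like (2.42, adjusted p = 0.0015) and ventricle-like parts (1.60, adjusted p = 0.0032), and Tbx3 in both (1.01 and 2.39, adjusted p = 0.014 and 0.021). Tbx2 rose in ventricle-like parts (2.30, adjusted p = 0.0020) and was at 0.80 in atrium-like parts. Erbb3 rose in atrium-like parts (3.41, adjusted p = 0.0085). Of the 22 genes, 3 were called higher and 3 lower in each comparison, a share near the 24.8% and 18.9% of all genes called, and the medians were −0.71 and −0.50. Bmp2, the main myocardial inducer, was at 18.1 ± 1.2 FPKM in atrium-like and 9.28 ± 1.26 in ventricle-like parts beside 17.8 ± 10.1 and 10.1 ± 2.8 in the embryo, and was not called (0.19 and −0.22). Bmp4 (−2.08 and −1.20), Tgfb2 (−1.45 and −0.03), Notch1 (−0.87 and −1.34) and Nfatc1 (−1.49 and −1.70) were not called either, with adjusted p of 0.055 or more.

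Among 14 other factors of epithelial-mesenchymal transition and mesenchyme, 1 was called higher and 2 lower in atria of E11.5H, beside 4.90% of all genes called. Foxf1, a factor of lung and gut mesenchyme, was at 0.775 to 5.13 FPKM in atria and 0 to 0.219 FPKM in ventricles (adjusted p = 0.0083). Snai3, the third SNAIL gene, was at 0.318 ± 0.069 FPKM in atria and 3.26 ± 0.30 in ventricles (−3.42, adjusted p = 0.00026), the reverse of the small difference of Snai2. Meox1 fell in atria (−1.91, adjusted p = 0.00092). The median of the 14 factors was 0.28. Zeb2, a repressor that acts beside the SNAIL proteins, was at 0.61 (adjusted p = 0.0018), below the fold limit, and Prrx1 at 0.18. Of the 14 factors, 3 were called in atrium-like and 2 in ventricle-like parts, beside 24.8% and 18.9% of all genes. In HO parts Foxf1 was high, at 21.7 ± 9.1 and 10.6 ± 4.8 FPKM, and was called in both (adjusted p = 0.023 and 0.010), whereas Tcf21 and Id2 fell in atrium-like parts (−1.70 and −1.14, adjusted p = 0.019 and 0.0072) and Meox1 in ventricle-like parts (−3.03, adjusted p = 0.017). Zeb2 (−0.40 and 0.49) and Prrx1 (1.29 and 1.99) were not called. Snai3 was at 0.483 to 1.74 FPKM in atrium-like and 1.81 to 3.19 FPKM in ventricle-like parts. These ranges did not overlap, as for 13.3% of all genes tested, and Snai3 was not called between the HO parts.

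Of 24 genes of the hyaluronan and proteoglycan matrix, 19 to 22 passed the filter. In E11.5H 1 of them was called, beside 4.90% of all genes called. It was the glycoprotein gene Tnc (−1.38, edgeR adjusted p = 0.047), which is named after its values were seen since its libraries overlapped. In the comparisons of HO parts with the embryo 3 of 20 tested genes were called for the atrium-like and 5 of 22 for the ventricle-like part, beside 24.8% and 18.9% of all genes. The medians were −0.03 in E11.5H and −0.06 and 0.20 in the comparisons of HO parts with the embryo. Has2 was the most abundant hyaluronan synthase in E11.5H by FPKM, where Has1 was at 0.126 ± 0.089 and 0.059 ± 0.053 FPKM and Has3 at 0.0082 ± 0.0142 and 0.041 ± 0.001 FPKM in atria and ventricles. In ventricle-like parts Has1 (0.206 to 6.09 FPKM, adjusted p = 0.047) and Has3 (0.113 to 0.339 FPKM, adjusted p = 0.036) were called higher. Ugdh, which makes the sugar precursor of hyaluronan, rose in both parts (2.61 and 2.28, adjusted p = 0.0047 and 0.0041), from 52.3 ± 8.1 and 47.0 ± 4.3 FPKM to 277 ± 95 and 243 ± 92. The hyaluronidase Hyal1 rose in atrium-like parts (2.24, adjusted p = 0.016), and the hyaluronan receptor Hmmr fell in ventricle-like parts (−1.68, adjusted p = 0.0027). Ptgs2, which encodes a prostaglandin synthase and no matrix component, was counted in this list. It went from at most 0.188 FPKM in every E11.5H library to 2.30 to 54.0 FPKM in HO libraries (adjusted p = 0.014 in each comparison). Cd44, the main hyaluronan receptor, was at −0.75 between chambers of E11.5H (adjusted p = 0.0089) and at 1.07 and 0.85 in HO parts, where it was not called. The versican-cleaving proteases Adamts5 (0.64 between the chambers of E11.5H, adjusted p = 0.049, and −1.36 and 0.16 in HO parts) and Adamts9 (−0.21, −0.30 and −0.97) were not called. Acan, the cartilage relative of versican, stayed at or below 0.404 FPKM in every library.

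Of 20 genes of the valve maturation matrix, 19 were tested in each comparison. In atria of E11.5H 4 were called higher and 3 lower, beside 4.90% of all genes called, with a median of −0.12. Called genes of fibrous collagen and of cartilage collagen went in opposite directions. Col1a1 and Col1a2 rose in atria (1.11 and 1.08, adjusted p = 2.1e-05 and 0.00021), as did the growth factor gene Ptn (1.72, adjusted p = 1.1e-05), whereas Col2a1 and Col9a1 fell (−1.02 and −1.09, adjusted p = 0.00017 and 0.0011), as did Eln, which encodes elastin (−2.66, adjusted p = 0.00014). The summed cartilage markers were 180 to 206 CPM in atria and 329 to 437 CPM in ventricles, in the direction of the members, and the summed general mesenchyme markers were 2922 to 4000 CPM in atria and 1994 to 2438 CPM in ventricles, in the other direction. These sums are not independent of the genes just named, since the cartilage list holds Col2a1 and Col9a1 and the mesenchyme list Col1a1 and Col1a2. Epicardium markers, like those of general mesenchyme, were higher in atria (905 to 985 CPM) than in ventricles (453 to 459 CPM). Erythroid markers summed to 5194 to 10089 CPM in atria and 8079 to 50517 CPM in ventricles, with overlapping ranges. The part of any of these sums in the differences of the members was not tested. Of the 19 genes, 7 rose and 0 fell in atrium-like parts, where 2462 of all 15418 genes rose and 1359 fell, and 6 rose and 1 fell in ventricle-like parts, where 1749 of all 15094 rose and 1110 fell, with medians of 1.22 and 0.79. Lum, a small proteoglycan of fibrous tissue, rose in both (3.78 and 3.43, adjusted p = 0.019 and 0.0091), Bgn and Eln in atrium-like parts (2.56 and 2.42, adjusted p = 0.016 and 0.0076) and Col1a1 and Dcn in ventricle-like parts (3.26 and 3.05, adjusted p = 0.031 and 0.024). Col2a1 was the gene that fell, from 47.6 ± 8.2 FPKM in ventricles to 7.35 ± 4.74 FPKM in ventricle-like parts (−2.80, adjusted p = 0.019). It was at 24.5 ± 2.1 FPKM in atria and 0 to 4.598 FPKM in atrium-like parts (adjusted p = 0.097). The adjusted p of these lists are from edgeR over all genes tested, and in the comparison between HO parts and in the interaction 0 genes of the 4 lists were called.

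The genes most alike to the members over the 12 libraries were found by the root mean square difference of mean-centred log2 CPM among 13187 genes, as a description. Twist1 was followed most closely by Vim, the mesenchymal intermediate filament gene, and Klf2 (both 0.27), Postn by Tgfbi (0.39), which encodes a matrix protein of the same family as periostin, Msx1 by Tmod2 (0.28), Snai1 by Emp3 (0.33), Snai2 by Rab3il1 (0.24) and Sox9 by Sirpa (0.33). Vcan was most like 6430548M08Rik (0.39) and Vegfc (0.41), and Has2 was most like Tm4sf1 (0.63). The nearest gene to Hapln1, the muscle gene Lmod3, was farther away (0.76), beside a median of 3.31 over all candidates for Hapln1 and of 0.88 for Twist1.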

How the data were processed

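Total RNA was sequenced from 12 libraries (4 groups, 3 replicates each), grouped by GEO's labels. Per the labels and the methods, reads were aligned with STAR to GRCm38/mm10, while the counting tool, annotation, strand setting and versions are not given in the sources used here. The labels name a TruSeq kit, whereas the methods name a preparation by a company. The deposited table holds expected counts per gene, which the authors did not normalize and of which 23.8% are not whole, and FPKM, which the authors made by dividing each count by transcript width and by 1 total per library.

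Expected counts were rounded and tested with the quasi-likelihood test of edgeR 4.0.16 in R 4.3.3 (TMM, filterByExpr with a minimum count of 10), each pair of groups alone and the interaction over all 12 libraries. P-values were adjusted by Benjamini-Hochberg over all genes tested, two-sided, and intervals cover 95%. The procedure was tested on simulated data with 200 changed genes. Alternatives were DESeq2 1.42.0, limma voom 3.58.1, other scalings and filters, a replicate block and libraries left out. FPKM has no correction for composition. Figures were drawn with matplotlib 3.10.9.

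The members, the lists of other genes and the markers were chosen with earlier results of these data known. All members were named. Of each other list, up to 3 called genes with the largest change in each direction without overlap of the groups were named, with further genes whatever their values and of the 2 genes most like each member those given in the text. The genes most like Msx2 are not reported here.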

Additional observations from a re-analysis of the deposited data

How the results depend on the processing

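Members were called in 3, 0, 1, 4 and 0 cases in the comparisons between chambers of E11.5H, between HO parts, of atrium-like parts with atria, of ventricle-like parts with ventricles and in the interaction. DESeq2 size factors, limma voom, no low-count filter and hemoglobin genes left out gave the same 5 counts. Over 490 member values under other settings, 418 kept their direction and side of the threshold, 6 lost and 21 gained a call in the same direction, and 45 turned their sign, of which 7 gained and 3 lost a call. Over 380 values with 1 library or replicate 2 of both HO parts left out, 321 kept both, 9 lost and 8 gained a call in the same direction, and 42 turned their sign, of which 1 gained a call (Has2 in atrium-like parts without atrium-like replicate 2). The DESeq2 Wald test called 3 members in atrium-like parts and 5 in ventricle-like parts. With no fold limit, 5 were called between the chambers of E11.5H, beside 1982 of all genes. With all 12 libraries in one fit 0 were called there, beside 30 of all genes, and Vcan, Postn and Has2 stayed at −1.52, −1.95 and −1.41. That fit has the spread of the HO libraries by construction, and it called 3 members in ventricle-like parts, with Msx2 lost (adjusted p = 0.13, edgeR). Cardiomyocyte scaling called 1, 0, 10, 8 and 0 members and mesenchyme scaling 4, 0, 5, 5 and 0. Between the chambers of E11.5H these scalings called 1973 and 1103 of all genes, against 712 in the main fit. Cardiomyocyte scaling moved the median of all genes to 3.85 in atrium-like parts against atria and to 2.95 in ventricle-like parts against ventricles. These counts thus depend on the scaling and do not describe the members alone. Without replicate 2 of both HO parts the interaction called 2, a setting added after the data were seen. With 1 library left out, the counts ranged from 2 to 3, 0 to 0, 1 to 3, 2 to 6 and 0 to 0.

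Whether the replicate numbers pair the libraries of the parts was not settled. The correlation of deviations from the group means for the same number was 0.00710, 0.0206 and 0.0431 in E11.5H and 0.0174, 0.589 and 0.360 in HOs. Atrium-like replicates 2 and 3 correlated best with the ventricle-like part of their own number, whereas atrium-like replicate 1 correlated best with ventricle-like replicate 3 (0.436). With the replicate number as a block, members were called in 3, 0, 1, 4 and 1 cases, the last being Postn in the interaction (2.21, adjusted p = 0.044, edgeR), and all genes in 621, 0, 2806, 2003 and 5 cases against 712, 0, 3821, 2859 and 25 without it. With the replicate block, the sign turned for Twist1 (0.0040) between HO parts, and for Has2 (−0.37) and Msx1 (−0.74) in atrium-like parts against atria. With the replicate block, the sign turned for Sox9 (−0.19) and Msx1 (−0.29) in ventricle-like parts against ventricles.

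With limma voom, the sign turned for Twist1 (0.12) between HO parts, and for Has2 (−0.15) and Msx1 (−0.55) in atrium-like parts against atria. With limma voom, the sign turned for Sox9 (−0.21) and Msx1 (−0.20) in ventricle-like parts against ventricles. With no filter, the sign turned for Twist1 (0.0066) between HO parts. With all 12 libraries in one fit, the sign turned for Twist1 (0.0051) between HO parts. With cardiomyocyte scaling, the sign turned for Hapln1 (0.13), Twist1 (0.10), Msx2 (0.043) and Snai1 (0.40) between the chambers of E11.5H, and for Hapln1 (0.086), Has2 (0.52), Twist1 (0.97), Sox9 (1.27) and Snai1 (0.59) between HO parts. With cardiomyocyte scaling, the sign turned for Vcan (2.84), Twist1 (3.14) and Snai2 (3.40) in atrium-like parts against atria, and for Vcan (0.70), Has2 (2.94), Postn (2.99), Twist1 (2.27) and Snai2 (1.41) in ventricle-like parts against ventricles. With cardiomyocyte scaling, the sign turned for Snai1 (0.19) in the interaction. With mesenchyme scaling, the sign turned for Snai2 (−0.16) between the chambers of E11.5H, and for Vcan (−0.12), Postn (−0.091) and Sox9 (0.082) between HO parts. With mesenchyme scaling, the sign turned for Has2 (−1.81), Postn (−0.25), Sox9 (−1.16), Msx1 (−2.08), Msx2 (−1.30) and Snai1 (−0.31) in atrium-like parts against atria, and for Sox9 (−2.23), Msx1 (−1.45), Msx2 (−0.0062) and Snai1 (−0.40) in ventricle-like parts against ventricles. With mesenchyme scaling, the sign turned for Snai1 (0.085) in the interaction. Without replicate 2 of both HO parts, the sign turned for Twist1 (0.094) between HO parts, and for Hapln1 (0.094) in the interaction. With 1 library left out, log2 fold changes that turned their sign between the chambers of E11.5H ranged from −0.36 to 0.0070 for Snai1. With 1 library left out, log2 fold changes that turned their sign between HO parts ranged from −1.41 to 0.35 for Hapln1, −0.36 to 0.73 for Vcan, −2.90 to 1.31 for Has2, −1.04 to 1.52 for Postn, −0.52 to 0.63 for Twist1, −0.66 to 0.37 for Sox9, −3.65 to 1.03 for Msx1 and −1.25 to 0.21 for Snai1. With 1 library left out, log2 fold changes that turned their sign in atrium-like parts against atria ranged from −1.85 to 1.39 for Has2, −0.89 to 0.0017 for Twist1 and −1.87 to 1.06 for Msx1. With 1 library left out, log2 fold changes that turned their sign in ventricle-like parts against ventricles ranged from −1.87 to 0.15 for Has2, −1.58 to 0.14 for Postn, −0.33 to 0.53 for Sox9 and −1.29 to 1.51 for Msx1. With 1 library left out, log2 fold changes that turned their sign in the interaction ranged from −0.92 to 0.80 for Hapln1, −1.46 to 2.74 for Has2, −0.011 to 1.13 for Twist1, −2.86 to 1.81 for Msx1 and −1.03 to 0.42 for Snai1. Relative to the shifted median of all genes, the sign was kept by 10, 7, 10, 9 and 9 members with cardiomyocyte scaling and by 10, 9, 8, 9 and 9 with mesenchyme scaling. For these changes the cause was not tested.

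The biological coefficient of variation was 0.211 between the chambers of E11.5H and 0.474 to 0.677 in the other fits. With 3 libraries a group and this spread, the intervals of most members in HOs span several log2 units, so that values short of the threshold do not show equal levels. Depth limits Hapln1 in HOs (6 to 340 counts) more than any other member.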
